A study of Mus musculus with 2 samples.

Results

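The brush border of the small intestine carries enzymes that complete digestion at the cell surface, and 9 of their genes were followed here: Sis, Mgam, Lct and Treh, which cleave sugars, Anpep, Enpep, Dpp4 and Mep1a, which cleave peptides, and Alpi, the intestinal alkaline phosphatase. They were taken by gene symbol, with 1 matrix row each among the 27998 rows, and all 9 had at least 1 UMI (unique molecular identifier, 1 counted mRNA molecule) in both libraries. With both libraries together, 8 of the 9 reached 50 UMIs, the minimum set for a ratio, as did 11665 of all rows. Lct did not.

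The data were droplet single-cell RNA-seq (10X Single Cell 3′ v2) of ileal epithelium from C57BL/6 mice aged 8 weeks, 1 library of wild type (WT) and 1 of TNFAIP8-/- mice. The gene Tnfaip8 encodes TIPE0, and the knockout is called Tipe0-/- below. The study's figure legends state that several mice per genotype were pooled before sequencing. Each genotype has 1 matrix in which cells of different mice cannot be told apart, and no label limits the deletion to epithelial cells. There was no replicate: no p-value is given, and the 95% intervals (exact Poisson for a level, exact binomial for a share or a ratio) cover counting error only.

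The WT library had 3402 cells and 38127808 UMIs, and the Tipe0-/- library had 2006 cells and 23897126 UMIs. The median cell held 7760 UMIs in WT and 7307.5 in Tipe0-/-, no cell held fewer than 3247, and 9 barcodes occurred in both libraries. Tnfaip8 itself was at 9.76 CPM (a counts-per-million unit, the gene's UMIs over all UMIs) from 372 UMIs in WT and at 2.39 CPM from 57 UMIs in Tipe0-/-. Which exons the allele lacks was not given in the sources used here, and a 3′ tag outside the deleted part would check nothing. Mitochondrial genes took 6.59% of UMIs in WT and 8.56% in Tipe0-/-. Although the labels call the samples enterocytes, clustering gave 13 clusters, of which 11 could be named from marker genes. Clusters 1 (led by Apoa1, Slc6a19 and Tmigd1, with 10 of 15 enterocyte markers) and 5 (led by Ms4a18, Fabp6 and Arg2, with 6 of 15) were enterocyte-like. Together they held 785 WT cells (23.1%) and 394 Tipe0-/- cells (19.6%).

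Absorptive enterocytes are born in the crypt and move up the villus, and the microvilli at their apical face make up the brush border. Most of its digestive enzymes are integral membrane proteins whose catalytic domains face the gut lumen, where they split oligosaccharides and small peptides into units that the neighbouring transporters take up. Their genes are classical markers of enterocyte differentiation, and factors of the CDX, HNF4 and GATA families are known regulators of several of them.

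The promoters of 3 members are printed because the genes had unlike patterns: Sis was concentrated in enterocyte-like cells, Mgam was found in every cluster, and Alpi had the highest ratio between the libraries. Each is the 250 bases before the RefSeq transcription start, read 5′ to 3′ on the strand of the gene in GRCm38.p6, with capitals marking matches to the motifs searched on both strands.
Sis: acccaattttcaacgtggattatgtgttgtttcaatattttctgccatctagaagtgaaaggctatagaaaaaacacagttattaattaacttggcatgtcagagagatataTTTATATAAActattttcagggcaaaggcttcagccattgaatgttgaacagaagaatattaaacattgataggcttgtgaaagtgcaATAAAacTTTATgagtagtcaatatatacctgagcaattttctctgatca
Mgam: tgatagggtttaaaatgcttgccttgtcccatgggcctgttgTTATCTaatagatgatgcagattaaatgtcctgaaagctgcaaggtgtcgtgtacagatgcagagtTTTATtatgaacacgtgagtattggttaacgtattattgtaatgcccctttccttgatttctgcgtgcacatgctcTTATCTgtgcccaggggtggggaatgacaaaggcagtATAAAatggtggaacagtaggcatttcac
Alpi: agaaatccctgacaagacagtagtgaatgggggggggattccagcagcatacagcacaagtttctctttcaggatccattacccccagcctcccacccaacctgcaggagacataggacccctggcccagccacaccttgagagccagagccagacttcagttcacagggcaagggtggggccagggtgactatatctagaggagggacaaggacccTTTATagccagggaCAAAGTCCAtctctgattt

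These windows lie at chr3:72967864-72968113 on the minus strand (Sis), chr6:40628581-40628830 on the plus strand (Mgam) and chr1:87101607-87101856 on the minus strand (Alpi). The CDX motif TTTAT was found in 6 of the 9 members (Alpi, Sis, Lct, Mgam, Dpp4 and Enpep) and in 37.3% of 32851 promoters of the same length. The Sis window held 4 matches to it, at 138, 133, 50 and 43 bases before the start, and those at 138 and 133 abut on opposite strands. AGATAA, the GATA motif, occurred in Mgam, Lct and Dpp4 and in 9.99% of promoters. The HNF4 motif CAAAGTCCA occurred in Alpi and Treh and in 0.384% of promoters, and its other form CAAAGTTCA (0.335% of promoters) was in none of the 9. In Alpi the HNF4 match begins 19 bases before the start and the CDX match 33 bases before it. The Lct window held 2 CDX and 2 GATA matches, of which a CDX and a GATA match overlap. No motif was found in the windows of Anpep and Mep1a. The Anpep window (chr7:79848211-79848460), before its RefSeq start, lies inside the GENCODE span of the gene given below. The Mep1a window overlaps its gene in part. A match is a run of letters and was not tested as a binding site.

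The genes themselves, in GENCODE M21 coordinates of GRCm38, are Sis (ENSMUSG00000027790, chr3:72888557-72967863), Mgam (ENSMUSG00000068587, chr6:40628831-40769123), Lct (ENSMUSG00000026354, chr1:128284756-128328318), Treh (ENSMUSG00000032098, chr9:44673233-44686305), Anpep (ENSMUSG00000039062, chr7:79821803-79861059), Enpep (ENSMUSG00000028024, chr3:129269175-129332720), Dpp4 (ENSMUSG00000035000, chr2:62330073-62412231), Mep1a (ENSMUSG00000023914, chr17:43474324-43502812) and Alpi (ENSMUSG00000079440, chr1:87098002-87101606). Treh overlaps Phldb1 on the opposite strand, and Dpp4 overlaps Gm13561, which had no UMI. The pseudogene Mgam2-ps follows Mgam on the same strand and has no row in the matrix, so tags from it, if any were counted as Mgam, could not be told apart.

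The first comparison asked in which cell classes the enzymes were found. Levels are in CPM over the UMIs of the cluster, at the 3′ end and not scaled by length, so they are compared between clusters within a gene and not between genes. The members and the other listed genes were left out of the genes used for clustering, although clusters still rest on the same cells, and a cluster against the rest is a description.

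Sucrase-isomaltase (Sis), which splits sucrose and starch fragments, was highest in enterocyte cluster 1, at 633 CPM (608 to 659) in the WT cells and 836 CPM (794 to 880) in the Tipe0-/- cells. It was at 349 and 434 in enterocyte cluster 5 and at 149 and 159 in goblet cluster 9. In the stem-like cluster, led by Lgr5, it was at 4.46 and 2.47, so cluster 1 was 142-fold (79.3 to 285) and 338-fold (155 to 924) higher. The order of clusters 1, 5 and 9 was clear of counting error in both libraries, and below them neighbours in the order were not separated. Of all Sis UMIs, 81.2% in WT and 80.3% in Tipe0-/- lay in enterocyte-like cells, which hold 17.8% and 13.2% of all UMIs.

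Mgam encodes maltase-glucoamylase, which also releases glucose from starch fragments, and it had another distribution. It was again highest in cluster 1 (351 in WT, 333 to 371; 639.8 in Tipe0-/-, 603 to 679), but the stem-like cluster was at 246 and 258, only 1.43-fold (1.29 to 1.57) and 2.48-fold (2.25 to 2.74) lower. The cycling cluster was at 277 and 313, the tuft-like cluster at 197 and 215, and goblet cluster 0 at 175 and 202. Clusters 5, 6, 3 and 2 were not separated from each other in order. The lowest level was in Paneth-like cells, at 43.0 and 56.7. Enterocyte-like cells held 27.0% of Mgam UMIs in WT and 26.9% in Tipe0-/-, the smallest share among the 8 members that reached the minimum.

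Trehalase (Treh), which splits the disaccharide trehalose, had 76.2% of its WT and 82.7% of its Tipe0-/- UMIs in cluster 1, at 49.6 and 108 CPM. The stem-like cluster had 0 Treh UMIs in WT, which makes cluster 1 at least 40.8-fold higher against a floor of 3 counts, and 1 UMI in Tipe0-/-, a ratio of 262 with an interval from 46.5 to 10410. Cluster 1 alone was separated from the next in order. Lactase (Lct), the enzyme that splits milk sugar, was nearly absent, with 4 UMIs among all WT cells and 1 among all Tipe0-/- cells. None of them was in an enterocyte-like cell (0 of 785 and 0 of 394). A floor of 3 cells, which is not an exact interval, would put the share with a UMI at 0.382% and 0.761%.

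Anpep, Enpep and Mep1a, like Sis, were highest in clusters 1, 5 and 9, in that order. Anpep was more concentrated in cluster 1, which held 74.8% of its WT and 75.8% of its Tipe0-/- UMIs, against 56.1% for Sis in each. Aminopeptidase N (Anpep), which trims neutral residues from the amino end of peptides, was at 3199 in cluster 1 of WT and 3860.1 in Tipe0-/-, against 740.9 and 905 in cluster 5, 484 and 476 in goblet cluster 9, and 10.1 and 9.06 in stem-like cells. Cluster 1 exceeded the stem-like cluster 316-fold (214 to 488) in WT and 426-fold (281 to 680.3) in Tipe0-/-, and clusters 1, 5 and 9 were separated in order. Enpep, the aminopeptidase A that removes acidic residues, was at 1157 and 1784 in cluster 1, 394 and 542 in cluster 5, and 2.84 and 8.65 in stem-like cells.

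Mep1a, the alpha subunit of the metallopeptidase meprin, went from 547 and 1008 in cluster 1 through 314 and 518 in cluster 5 to 4.86 and 15.7 in stem-like cells. For Enpep and Mep1a the 4 highest clusters (1, 5, 9 and the unnamed cluster 6, led by Gsdmc4) kept their order clear of counting error in both libraries. Dpp4, which removes dipeptides from the amino end, dropped more steeply between the enterocyte-like clusters, from 445 and 639 in cluster 1 to 87.3 and 126 in cluster 5. It was still at 29.2 and 30.9 in stem-like cells, 15.3-fold (12.1 to 19.6) and 20.7-fold (16.4 to 26.5) under cluster 1. Dpp4 is also known as a T cell surface protein, and its 7 and 4 UMIs in lymphocyte-like cells did not separate that cluster from its neighbours in the order.

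Alpi, which removes phosphate from lipopolysaccharide and nucleotides in the lumen, was at 72.8 in cluster 1 of WT (64.4 to 82.0) and 165 in Tipe0-/- (147 to 185). Cluster 5 had 10.2 and 22.3, and the stem-like cluster had no Alpi UMI in either library, so cluster 1 was at least 59.9-fold and 134-fold higher. Like Treh, Alpi was separated from the next cluster only at the top of the order.

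**Figure D1:**
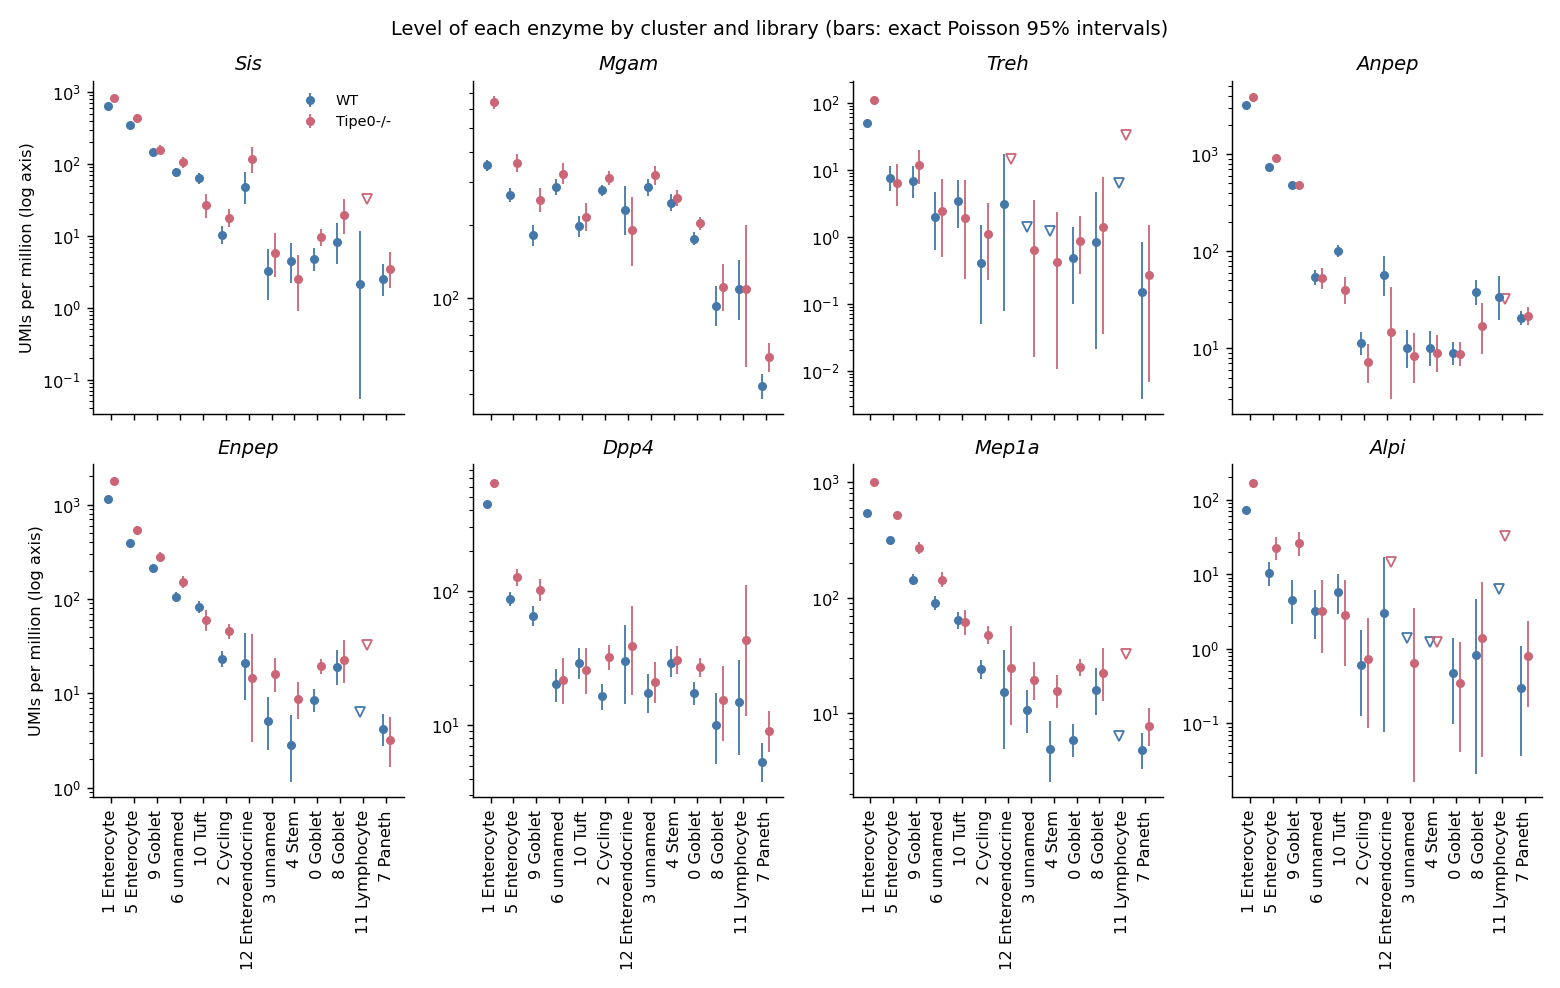
Level of the 8 members that reached 50 UMIs in each of 13 clusters (x axis, ordered by the summed level) in CPM on a log axis, 1 point per library with its exact Poisson 95% interval; open triangles mark clusters with 0 UMIs, drawn at the level that 3 counts would give. All 8 peak in cluster 1, and Mgam alone stays between 197 and 313 CPM in the stem, cycling and tuft clusters.

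The makeup of the enzyme transcripts made the same distinction. Anpep gave 49.6% of member UMIs in cluster 1 of WT and Mgam 5.44%, whereas in stem-like cells Anpep gave 3.40% and Mgam 82.7%. In Tipe0-/- the corresponding shares were 42.7% and 7.08% in cluster 1, and 2.79% and 79.3% in stem-like cells. In lymphocyte-like cells Mgam was at 108 CPM in both libraries, from 51 UMIs in WT and 10 in Tipe0-/-. How much of these levels is free RNA was not tested. Goblet cluster 9 was made up much like the enterocyte-like clusters (Anpep 38.8% and 30.1%, Enpep 17.2% and 17.8%), unlike goblet cluster 0, where Mgam gave 79.1% and 69.0%. Cells of cluster 9 had a median of 12919 and 13843 UMIs, under the 15526 and 17426 of goblet cluster 0. They were over the 5141.5 and 4906 of goblet cluster 8, which like cluster 9 was led by genes such as Zg16, Fcgbp and Clca1. All 15 enterocyte markers had at least 1 UMI in cluster 9, at a summed 16103 and 17712 CPM. In the tuft-like cluster 14 of the 15 were found in each library, at 6532 and 2834 CPM. Lymphocyte-like cells also had 13 of the 15 in WT and 10 in Tipe0-/-, at a summed 673 and 551 CPM. Whether doublets contribute to cluster 9 was not tested.

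**Figure D2:**
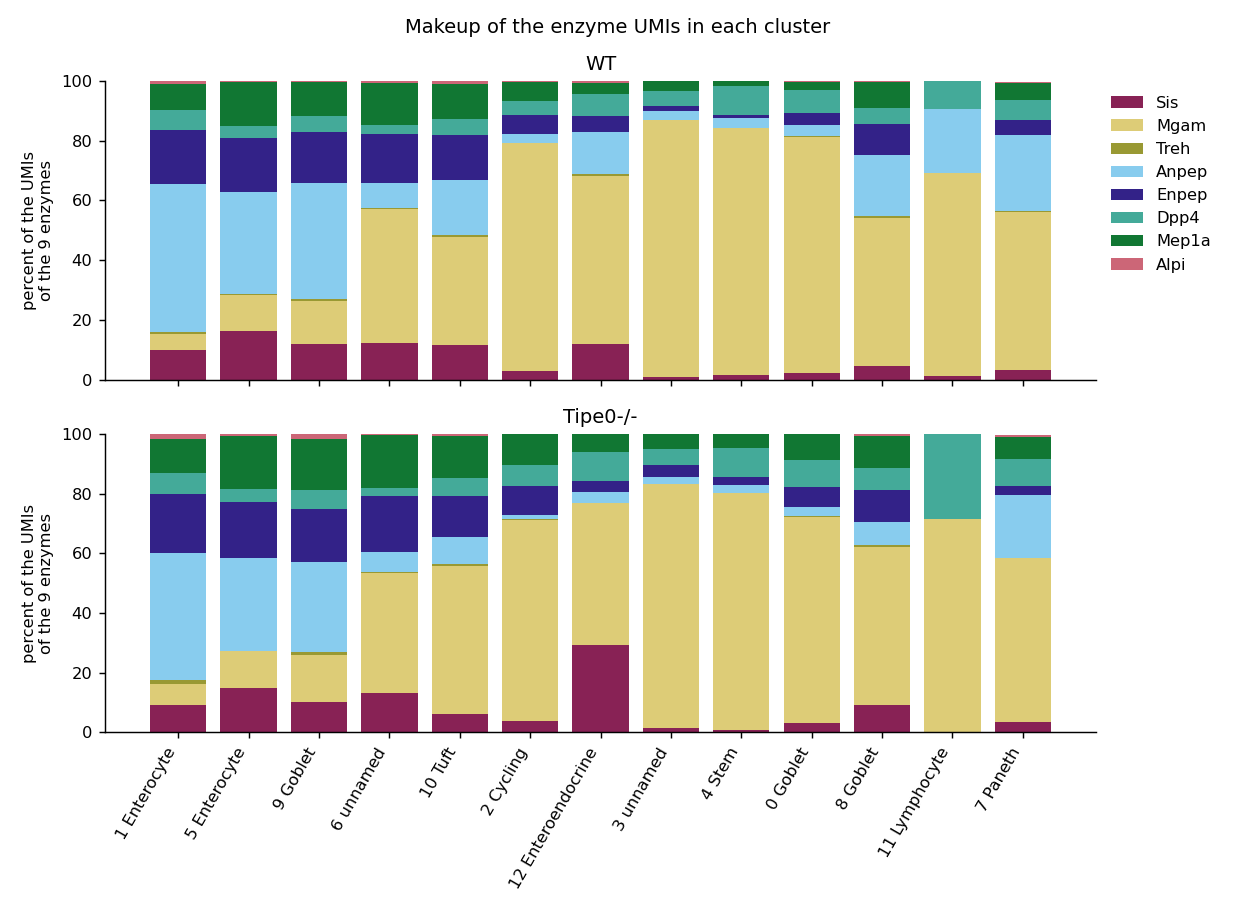
Share of each member among the UMIs of all 9 members (y axis, percent, stacked bars) in each cluster, WT above and Tipe0-/- below; Lct is not drawn. Anpep takes the largest share in clusters 1, 5 and 9, and Mgam takes at least 53.0% of the bar in the stem, cycling and Paneth clusters of both libraries.

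Per cell the picture was the same at equal depth. After each cell was thinned to 3000 UMIs, Mgam was found in 60.6% of WT (57.1 to 64.1) and 74.9% of Tipe0-/- (70.3 to 79.1) enterocyte-like cells, and in 53.2% and 54.5% of stem-like cells. In lymphocyte-like cells, taken as a class that should lack brush border transcripts, the Mgam share was 17.8% and 29.4%, from 90 and 17 cells. Median depths before thinning were 6461 and 5731 UMIs in enterocyte-like, 6226 and 6726.5 in stem-like and 4422 and 4315 in lymphocyte-like cells. Sis, found in 69.3% and 78.2% of enterocyte-like cells, was in 1.11% and 0% of lymphocyte-like cells. Without thinning, the shares in enterocyte-like cells were 88.5% and 93.1% for Mgam and 88.7% and 90.4% for Sis.

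Most enterocyte-like cells showed several of the enzymes, and whether these occurred together more than their levels imply was not tested. At 3000 UMIs the median cell showed 5 of the 9 members in both libraries, and 5 or more were found in 54.1% of WT and 71.1% of Tipe0-/- cells. In stem-like cells the median was 1 member, and none showed 5. Over 13 clusters in 2 libraries (26 points that share libraries and depth), the log2 levels of Enpep and Mep1a were the most alike of 21 member pairs (Pearson r 0.99) and those of Anpep and Mgam the least (0.43). Treh and Lct had too few UMIs for this. Among 7958 genes with at least 500 UMIs, the 8 with the pattern most like the summed members were Slc5a1 (r 0.98), the apical sodium-glucose transporter, Tcn2 (0.98), a vitamin B12 carrier, Mttp (0.97), which loads lipid onto apolipoprotein B, Muc3 (0.97), a membrane mucin, Slc30a1 (0.97), a zinc exporter, Slc9a2 (0.97), a sodium-proton exchanger, Srxn1 (0.96) and Cyp4f14 (0.95). Mttp was also 1 of the markers used to name the clusters.

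The comparison the study was designed for is that of WT with Tipe0-/- ileum. Over whole libraries the 9 members summed to 1099 CPM (1088 to 1109) for WT and 1175 CPM (1161 to 1189) for Tipe0-/-, log2 ratio 0.10 (0.07 to 0.12). The median log2 ratio over all 11665 genes with 50 UMIs was 0.15, so the sum lay 0.06 under that median. Ratios are therefore read against the median, and a gene is called higher or lower when it lies at least 0.5 from it on the log2 scale. In a whole library, fewer cells of a type and less RNA per cell cannot be told apart.

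Across whole libraries Alpi rose from 9.02 to 15.2 CPM (log2 ratio 0.75, 0.53 to 0.97), Treh went from 6.40 to 9.46 (0.56, 0.30 to 0.83) and Mep1a from 103 to 143 (0.48, 0.41 to 0.54). Sis was at 111 and 108 (-0.04, -0.11 to 0.03). Anpep, at 421 and 369, had the lowest ratio of the 8 (-0.19, -0.23 to -0.15). Of the 8 members 1, Alpi, was called higher, and 0 were called lower, beside 6.22% of all genes called higher and 8.51% called lower. The median over the 8 was 0.26. Without cells over 10% mitochondrial, a count added after seeing the data, 0 members were called higher and 4 lower (Sis, Enpep, Anpep and Treh). Of 11295 genes in that setting, 5.98% were called higher and 9.21% lower. The ratio of Alpi was then -0.08.

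Within enterocyte-like cells all 8 ratios were larger. The summed members were at 4538 CPM (4487 to 4589) for WT and 6264 CPM (6177 to 6352) for Tipe0-/-. Their log2 ratio was 0.47 (0.44 to 0.49) where the median over 7904 genes was 0.14. Of the 8 members 4 were called higher, Alpi, Treh, Mep1a and Mgam, and 0 lower, beside 10.0% of all genes called higher and 9.17% called lower. The median of the 8 was 0.65. Without cells over 10% mitochondrial, 0 of the 8 were called in either direction. Of 6706 genes in that setting, 12.24% were called higher and 10.99% lower.

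Among the sugar-cleaving enzymes, Treh went from 30.8 CPM (26.8 to 35.3) to 61.9 CPM (53.5 to 71.2), log2 ratio 1.01 (0.72 to 1.29). Phldb1, on its opposite strand, had 68 and 58 UMIs in these cells (log2 ratio 0.87). Mgam went from 313 (299.7 to 327) to 513 (488 to 538), log2 ratio 0.71 (0.62 to 0.81). Sis, at 506 (489.5 to 524) and 654 (626 to 683), had a ratio of 0.37 (0.29 to 0.45), which is 0.22 above the median of all genes.

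Among the peptidases, Mep1a went furthest, from 443 (427 to 459) to 786 (755 to 817), log2 ratio 0.83 (0.75 to 0.91). Enpep was at 816 (794 to 838) and 1222 (1183 to 1261), a ratio of 0.58 (0.52 to 0.64). Dpp4 was at 285 (273 to 298) and 406 (385 to 429), with 0.51 (0.41 to 0.61). Neither was as far as 0.5 above the median. Anpep, the member with the most UMIs, was at 2099 (2065 to 2134) and 2521 (2466 to 2577), with a ratio of 0.26 (0.22 to 0.30), the lowest of the 8 here as in whole libraries. Alpi was at 44.8 (39.9 to 50.1) and 100.4 (89.7 to 112), with the highest ratio, 1.16 (0.93 to 1.40).

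**Figure D3:**
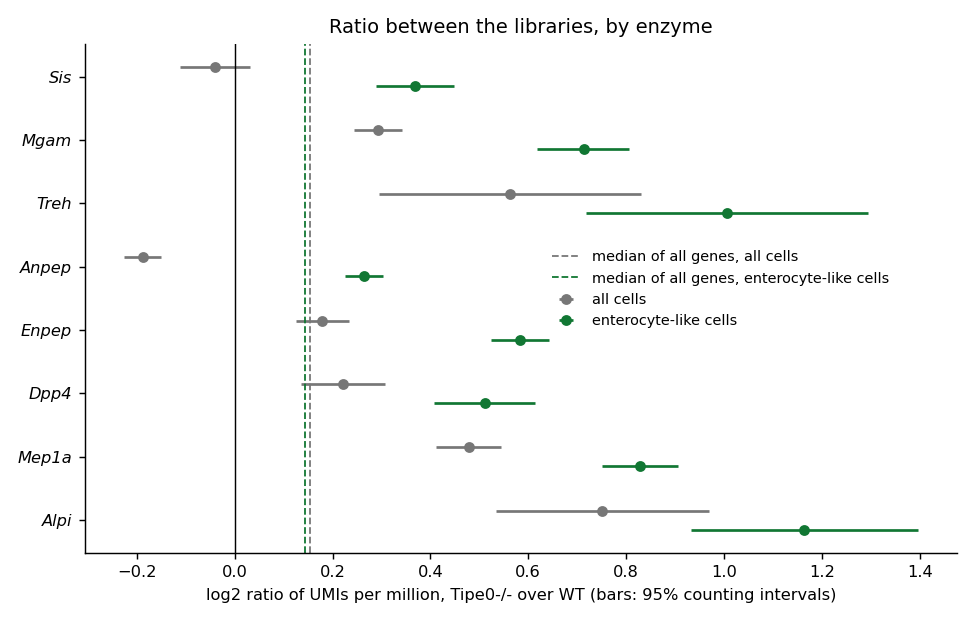
Log2 ratio of Tipe0-/- over WT (x axis) for the 8 members with 50 UMIs (y axis), over all cells in grey and over enterocyte-like cells in green, with 95% counting intervals; dashed lines mark the median of all genes, 0.15 and 0.14. Each green point lies to the right of its grey point, and all 8 green points lie to the right of the dashed lines.

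Several other measurements differed between the libraries. Enterocyte-like cells were 23.1% of WT and 19.6% of Tipe0-/- cells, and their UMIs 17.8% and 13.2% of the library. When both libraries were weighted to 1 makeup of clusters, the whole-library ratio of the sum was 0.38 and that of Anpep 0.18. The summed enterocyte markers stood at 42546.5 CPM in WT and 58044 in Tipe0-/- enterocyte-like cells, a log2 ratio of 0.45 close to that of the members, with 7 of the 15 markers above 0 and 8 below. In the same cells the lymphocyte markers (11 of 12 in the matrix) summed to 129 and 18.3, the Paneth markers (all 10 found) to 1393 and 698 and the goblet markers (all 10 found) to 2864 and 3039.

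Mitochondrial content also differed, with a median of 10.6% in WT and 13.4% in Tipe0-/- enterocyte-like cells. Without cells over 10% mitochondrial, 349 of 785 and 70 of 394 enterocyte-like cells remained, and the ratio of the sum was 0.10 where the median of 6706 genes was 0.16. Alpi went from 1.16 to 0.60, Treh from 1.01 to 0.28, Mep1a from 0.83 to 0.62 and Mgam from 0.71 to 0.48, each then less than 0.5 above that median. Sis was at 0.32, Enpep at 0.095, Dpp4 at -0.06 and Anpep at -0.18. The part of mitochondrial content in the ratios was not tested.

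With all cells kept, the direction was the same in each enterocyte-like cluster taken alone. In cluster 1 the ratios ran from 0.27 for Anpep to 1.18 for Alpi, and in cluster 5 from 0.29 for Anpep to 1.13 for Alpi, with Treh at too few UMIs there (23 and 9). The unnamed cluster 6 had a ratio of the sum of 0.34 (0.22 to 0.45), with Anpep at -0.02 (-0.47 to 0.41).

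Mep1a had higher levels in Tipe0-/- beyond the enterocyte-like clusters too. Of the 10 clusters in which it had 50 UMIs, its ratio was above 0 in 9, and in 8 the interval excluded 0. In goblet cluster 0 it was at 5.89 CPM in WT (37 UMIs) and 24.9 in Tipe0-/- (145 UMIs), a log2 ratio of 2.07 (1.55 to 2.64), and in stem-like cells at 4.86 and 15.7, a ratio of 1.65 (0.72 to 2.76). Anpep in goblet cluster 0 was at 8.91 and 8.76 (-0.02, -0.60 to 0.55), so the members did not move as 1 block there. In cycling cells Mep1a, Enpep and Dpp4 had ratios of 0.99 (0.62 to 1.36), 0.97 (0.59 to 1.35) and 0.97 (0.52 to 1.42). The remaining peptidase, Anpep, had a ratio of -0.62 (-1.46 to 0.12) there, from 55 and 20 UMIs. Mgam was at 246 and 258 in stem-like cells (0.07, -0.10 to 0.23). Clusters of 1 library are not replicates of its genotype.

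Enterocyte-like cells were also split into 4 ranges with equal numbers of cells by a score. The score was a tip mean minus a base mean of log-normalized values. The tip mean covered 7 genes of the villus tip (such as Apoa4), the base mean 7 genes of the villus base (such as Reg3b and Lypd8). These are ranges and not cell types, and 300 of the 1179 cells lay within 0.05 of a boundary. The libraries filled the ranges unequally: 248, 219, 173 and 145 WT cells, and 47, 76, 122 and 149 Tipe0-/- cells, from low to high. The base genes summed to 163308 CPM in WT and 109831 in Tipe0-/-, with 3 of the 7 log2 ratios above 0 and 4 below. The tip genes summed to only 491 and 563 CPM, with 4 of the 7 above 0 and 3 below. The median score was -2.65 in WT and -2.42 in Tipe0-/-, and the weight of each set in it was not tested. Since both sets enter the score, a range is not a matched villus position in both libraries.

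Alpi had the steepest course in WT, at 18.1, 26.9, 42.7 and 171 CPM from the lowest to the highest range, and 44.4, 52.2, 66.2 and 219.7 in Tipe0-/-. Its ratio within a range was 1.31 (0.45 to 2.09) in the lowest and 0.36 (0.04 to 0.69) in the highest, against 1.16 over all enterocyte-like cells. Treh was higher at every step as well, from 18.1 to 66.5 in WT and from 13.3 to 140.1 in Tipe0-/-. Its ratio was 1.07 (0.61 to 1.56) in the highest range, and in the lower 3 the intervals included 0.

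Dpp4 went from 209.9 to 610.0 in WT and from 300.0 to 615 in Tipe0-/-, and its ratio went from 0.52 (0.23 to 0.79) in the lowest range to 0.01 (-0.17 to 0.19) in the highest. Anpep and Enpep were also highest in the top range in both libraries, at 3586 and 3899 for Anpep and at 1319.6 and 1665 for Enpep. Within ranges the ratio of Anpep lay between -0.05 and 0.13, against 0.26 over all enterocyte-like cells. Enpep kept between 0.34 and 0.54, and Mep1a between 0.64 and 0.92.

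Sis was not highest at the top of the score. It was at 516, 469, 588 and 440.3 in WT and 684, 675.5, 686.5 and 575 in Tipe0-/-, highest in the third range of both. In WT the top range exceeded the bottom range 1.29-fold for Mgam and 1.39-fold for Mep1a, against 9.42-fold for Alpi. Over the 8 members the median ratio within a range was 0.46, 0.45, 0.33 and 0.37 from low to high, where the medians over all genes were 0.10, 0.06, 0.06 and 0.08.

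**Figure D4:**
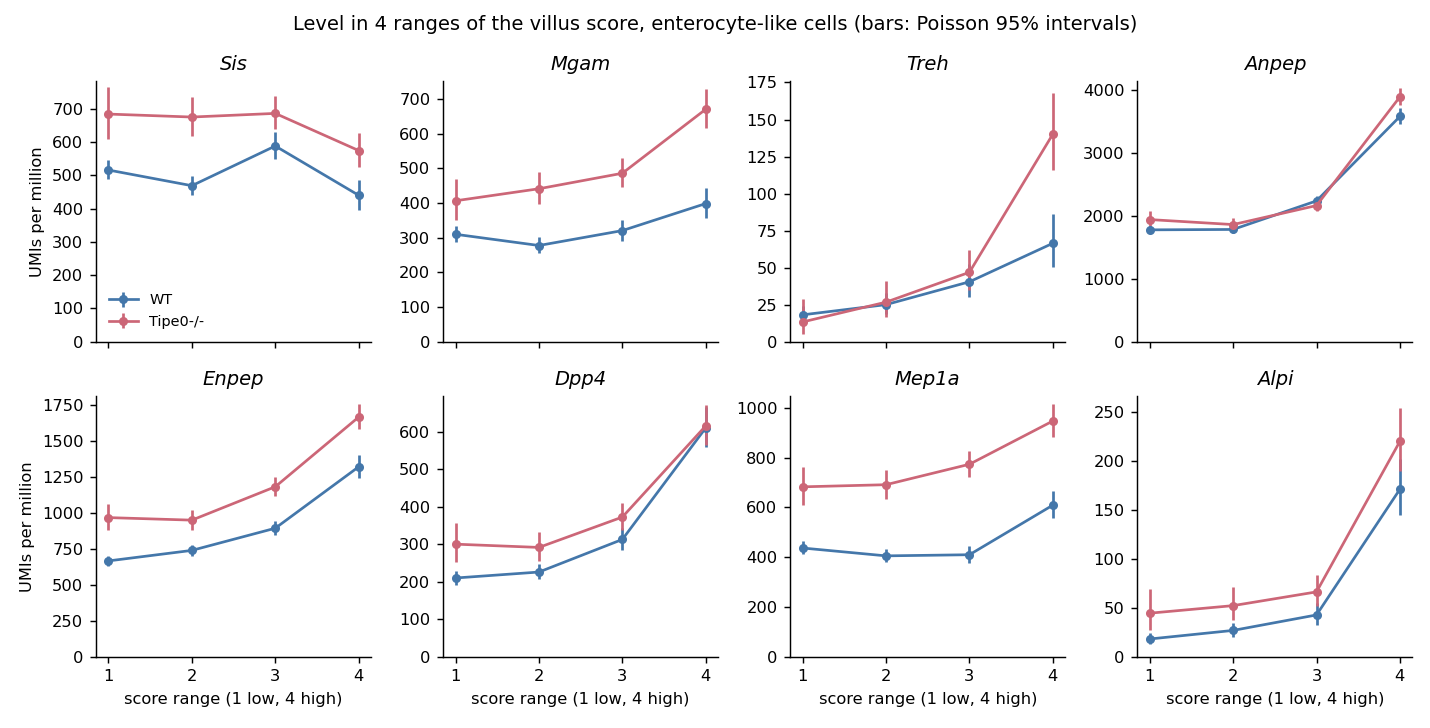
Level of 8 members (y axis, CPM, from 0) in the 4 score ranges (x axis) of enterocyte-like cells, WT in blue and Tipe0-/- in red, with exact Poisson 95% intervals. Alpi and Treh climb most towards the highest range, Sis peaks in the third range, and the Dpp4 curves meet at the top (610.0 and 615).

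Other genes related to absorptive cells were taken from 4 lists. The list of 22 other brush border and digestive enzymes also holds enzymes from inside the cell, such as the peptidase gene Lap3. Of these 22 genes, 14 had 50 UMIs in enterocyte-like cells. Of the 14, 3 were called higher and 0 lower, with a median log2 ratio of 0.39. The counts of this and the next lists stand beside 10.0% of all genes called higher and 9.17% called lower there, and beside 6.22% and 8.51% in whole libraries. Over whole libraries 2 of 15 were called higher and 3 lower (Mep1b, Ace and Lap3), with a median of -0.04. Mme, the peptidase neprilysin, went from 10.9 to 42.3 CPM (1.95, 1.54 to 2.39), and Naaladl1, a peptidase of the glutamate carboxypeptidase family, from 358 to 921 (1.36, 1.29 to 1.44). The lowest were Mep1b, the beta subunit of meprin, at 662 and 594 (-0.16, -0.23 to -0.08), and Ace, the angiotensin-converting enzyme, at 106 and 97.9 (-0.11, -0.31 to 0.08). The meprin subunits thus differed, with 0.83 for Mep1a and -0.16 for Mep1b. Akp3, the other intestinal alkaline phosphatase gene, and Tmprss15, which activates trypsinogen, had no UMI in enterocyte-like cells of either library.

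Of 15 nutrient transporters 14 were counted, with 7 called higher, 1 lower and a median of 0.47, and over whole libraries 4 of 14 higher, 2 lower and a median of 0.18. Slc6a20a, an imino acid transporter, went from 78.4 to 232 (1.56, 1.40 to 1.73) and Slc2a5, the fructose transporter, from 6.63 to 18.6 (1.49, 0.91 to 2.08). Slc5a9, a sodium-coupled sugar transporter, went from 24.6 to 13.9 (-0.81, -1.34 to -0.34), and Slc7a7, which exports basic amino acids, was at 158.9 and 157 (-0.02, -0.18 to 0.13).

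The structural genes of the brush border had a median near that of all genes in enterocyte-like cells. Of 16 counted, 1 was called higher and 1 lower, with a median of 0.13, and over whole libraries 1 higher, 2 lower and a median of -0.10. The scaffold gene Pdzk1 went from 40.4 to 125 (1.63, 1.40 to 1.85), and next was the myosin gene Myo7b (0.39, 0.21 to 0.57). Espn, an actin-bundling protein, had -0.39 (-0.49 to -0.28) and Baiap2l1 -0.20 (-0.41 to 0.00). Of 15 transcription factors of absorptive genes 11 were counted, with 0 called higher, 1 lower and a median of 0.11, and over whole libraries 0 of 14 higher, 1 lower and a median of 0.10. Gata6 was at 32.3 and 43.9 CPM (0.45, 0.13 to 0.76), and the lowest were Prdm1 (-0.49, -1.06 to 0.04) and Cdx1 (-0.13, -0.35 to 0.09).

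**Figure D5:**
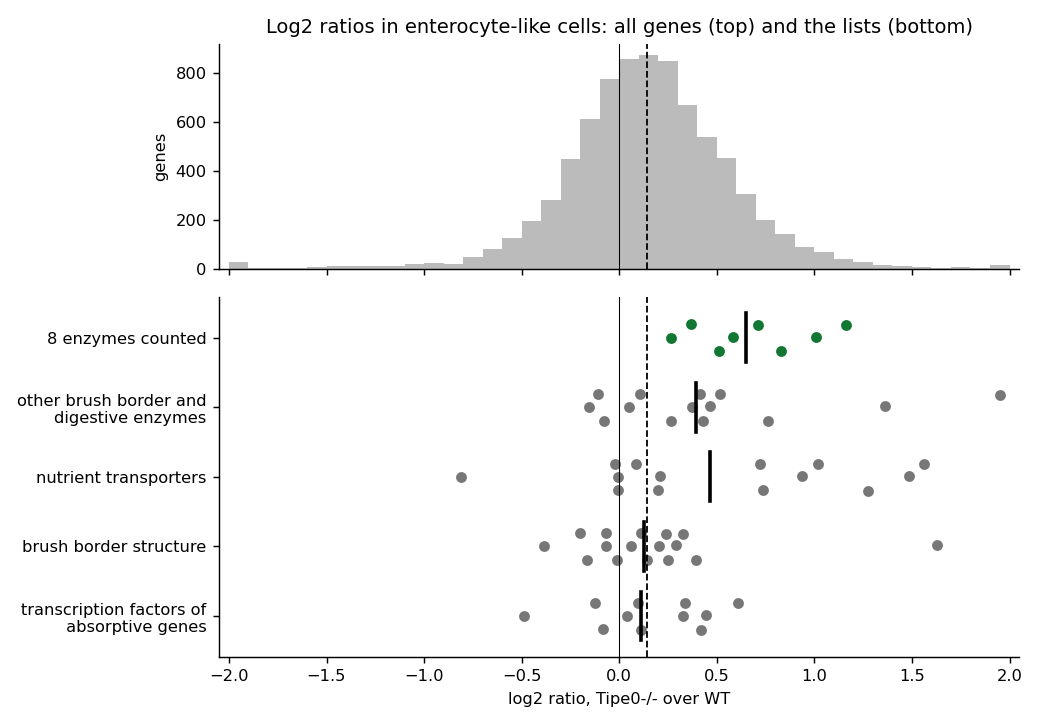
Log2 ratio of Tipe0-/- over WT in enterocyte-like cells (x axis): a histogram of 7904 genes (top, number of genes per bin of 0.1, with values beyond 2 placed in the end bins) and the genes of each list with 50 UMIs (bottom, 1 point per gene, the bar their median, vertical offsets only for legibility). The dashed line is the median of all genes, 0.14; the enzymes' median is 0.65 and that of the structural genes 0.13.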

How the data were processed

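Cells of ileal epithelium were profiled in 2 libraries, 1 per genotype. The paper describes digestion with DNase I and Dispase, the labels collagenase and Dispase. The authors used Cell Ranger 2.1.0 with the mm10 reference, and the deposited matrices hold raw UMI counts per gene and cell, without depth normalization. The matrices list cells, not all droplets.

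All cells were kept. UMIs were summed per library, cluster and class. Intervals were computed with scipy 1.17.1 under Python 3.11.15. Ratios had 0.5 added to each sum. Clusters were made in Seurat 5.3.0 under R 4.3.3 after the methods of the study: 582 variable genes by mean and dispersion, 501 after the members, listed genes and the study's genotype gene sheet were left out (7 members were among the 582), 14 principal components and resolution 0.8. A cluster was named from at least 3 markers found in 10% of its cells. Doublets were neither called nor removed, and leaving out the 5% of cells with most UMIs was an alternative. The log2 ratio over all cells, its interval and the call step were tested on simulated counts, and the other steps were not. Total UMIs per library set the counting error, which the intervals give.

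The members, lists and marker sets were chosen with earlier results of these data known. Named are all members, the 2 highest and 2 lowest genes of each of 4 lists by ratio in enterocyte-like cells, and the 8 genes most like the summed members. A transcription factor so named and a promoter motif are not reported here. Akp3, Tmprss15 and Lap3 were named after their values were seen, as were the score genes Apoa4, Reg3b and Lypd8. Nt5e is in both the score and the list of other enzymes. Alternatives changed the scaling, filters, clustering, score and makeup. The study's Wilcoxon test over cells was not used, since cells are not replicates. Coordinates are from GENCODE M21 and promoters from RefSeq, both GRCm38, and all 9 members matched. Protein sequences were not used here.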

Additional observations from a re-analysis of the deposited data

Results flagged for a closer look

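In 4 cases a member was lower in the Tipe0-/- library in 1 class while it was higher in enterocyte-like cells, with both counting intervals clear of 0. The differences between classes were not tested, since each genotype has 1 library. In tuft-like cells the log2 ratio of Sis was -1.22 (63.1 CPM in WT, 26.8 in Tipe0-/-), that of Anpep -1.31 (100.4 and 40.2 CPM) and that of Enpep -0.46 (82.2 and 59.3 CPM). The enterocyte markers summed there to 6532 and 2834 CPM, also lower in Tipe0-/-, and their part in these values was not tested. The cluster held 157 and 51 cells.

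In goblet-like cells the log2 ratio of Anpep was -0.63. Within the 3 goblet clusters it was -0.02 (-0.60 to 0.55) in cluster 0 and -0.03 (-0.18 to 0.13) in cluster 9. In cluster 8 it was -1.15 (-2.24 to -0.25), from 46 and 12 UMIs. Cluster 9, where Anpep was at 484 and 476 CPM, made up 21.3% of WT and 13.3% of Tipe0-/- goblet-like cells.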

How the results depend on the processing

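No paired analysis was possible because each genotype has 1 library, and for the same reason no library could be left out. In enterocyte-like cells the summed members stayed above 0 in all 13 settings, from 0.10 to 0.50 on the log2 scale, and so did the median, from 0.30 to 0.74. Over whole libraries neither stayed above 0 in every setting. The lowest enterocyte-like sum, 0.10, came without cells over 10% mitochondrial and lay under the median of all genes in that setting, 0.16.

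Without cells over 10% mitochondrial, the whole-library log2 ratio was -0.42 for the sum and -0.39 for the median. It was -1.04 for Anpep, -0.55 for Enpep, -0.47 for Sis, -0.45 for Treh, -0.33 for Dpp4, -0.082 for Alpi, 0.035 for Mep1a and 0.11 for Mgam. In enterocyte-like cells it was 0.10 for the sum, 0.30 for the median, -0.18 for Anpep and -0.064 for Dpp4. The cause was not tested. With scaling by the median ratio of all genes, the whole-library sum was -0.058 and the median 0.10, and those of enterocyte-like cells 0.32 and 0.50, which is the subtraction of that median. With every cell weighing the same, the whole-library sum was 0.26, the median 0.37 and Anpep 0.078, and the enterocyte-like sum 0.50. With the same makeup of classes, the sum was 0.38, the median 0.50 and Anpep 0.18.

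The whole-library sum was 0.039 with totals that leave out mitochondrial and the 20 most abundant genes and 0.060 without the 10 cells richest in members, where the enterocyte-like sum was 0.44. That sum was 0.39 when no genes were left out of the clustering and 0.39 when cells were named one by one. The median was 0.74 in cluster 1 alone, a setting chosen after seeing the data, as was adding cluster 6. With a log2 distance of 1 for a call, 0 members were called higher in whole libraries, down from 1. The share of all genes went from 6.22% to 0.892%. In enterocyte-like cells 1 member was called higher, down from 4, and the share of all genes went from 10.0% to 1.53%. Without cells over 10% mitochondrial, a count added after seeing the data, 0 members were called higher in whole libraries and 0 in enterocyte-like cells. The shares of all genes called higher were then 5.98% and 12.24%. Lct had too few UMIs for a ratio, as did Treh in clusters other than 1 and Alpi in clusters other than 1 and 5.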
